A study of Homo sapiens with 6 samples.

Results

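The receptors of the epidermal growth factor (EGF) family, their ligands and one feedback inhibitor were followed by RNA-seq in RPE1 cells with and without OFD1. The set holds 9 genes, taken from the expression table by gene symbol: the receptor genes EGFR, ERBB2 and ERBB3, the ligand genes HBEGF, NRG1, AREG, TGFA and EREG, and the inhibitor gene ERRFI1. All 9 were present among the 60666 genes that the table lists on the primary assembly. The 6 samples came from hTERT-RPE1-TOShOFD1, a human retinal pigment epithelial line immortalized with telomerase and infected with a lentivirus that makes a short hairpin RNA against OFD1 when doxycycline is present. Of these, 3 samples (control, genotype WT by the labels) grew without doxycycline and 3 samples (OFD1-depleted, genotype OFD1 knockdown by the labels) grew with 200 ng/mL doxycycline, and the labels give 72 h for both. All 6 samples carried the hairpin cassette and grew in medium with serum, and the infected cells were drug-selected, with no statement that the line is a single clone. No sample received doxycycline without inducing the hairpin, so the antibiotic and the loss of OFD1 cannot be told apart in any comparison given here.

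Values are FPKM, the number of sequenced fragments scaled to transcript length and to sequencing depth, so that levels can be compared between genes of different length. The knockdown was present in every treated sample, with OFD1 at 28.7% of its control mean, and OFD1-depleted replicate 3 kept the most OFD1 RNA (1.43 FPKM, against 0.795 and 0.763 FPKM in replicates 1 and 2). The share of FPKM on mitochondrially encoded genes was 6.65 to 10.97% in control and 12.7 to 15.99% in OFD1-depleted samples, and the summed FPKM of all genes was highest in OFD1-depleted replicate 2. The part of either in the results below was not tested, but both were used as alternative scalings. Of 10 markers of retinal pigment epithelium, only OTX2 and MITF reached a mean of 1 FPKM, neither passed the test, and the summed level of the 10 was 7.98 to 8.90 FPKM in the controls and 9.94 to 13.1 FPKM in OFD1-depleted samples, with DCT at 0 in all 6. BEST1 stood at 4.33 FPKM in OFD1-depleted replicate 2 and at most 0.0475 FPKM elsewhere, and without it the sums were 7.93 to 8.898 and 8.72 to 10.7 FPKM, which overlapped. The labels name retina as the tissue, and the photoreceptor markers CRX, PDE6B, RCVRN and SAG were at 0 in all samples. NRL, ARR3 and GNAT1, at most 0.286, 0.141 and 0.00894 FPKM, summed to 0.0978 to 0.199 FPKM in the controls and 0.209 to 0.427 FPKM after OFD1 depletion, and the part of either set of markers in the results was not tested.

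EGFR family receptors sit in the cell membrane and pair up when a ligand binds, which switches on their tyrosine kinases and, through adaptor proteins, the RAS-ERK and PI3K-AKT pathways. ERBB2 binds no ligand of its own and acts as a partner, while ERBB3 has little kinase activity and signals through its partner. The ligands are made as membrane proteins and are cut free by ADAM metalloproteases, and ERRFI1 (also called MIG6) binds the active EGFR kinase and blocks it. In epithelial cells, retinal pigment epithelium among them, this system is known for driving proliferation, migration and wound closure.

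Before the values, the promoter sequences are shown for EGFR, whose OFD1-depleted samples all lay below the controls, for ERRFI1, whose OFD1-depleted samples all lay above them, and for AREG, whose groups overlapped. Each is the 250 bases upstream of the RefSeq transcription start (GRCh38.p14), written 5′ to 3′ on the strand of the gene, with capitals for matches to any of 4 motifs searched on both strands: the TATA box TATAAA, the GC box GGGCGG, the AP-1 site TGANTCA and the cyclic AMP response element TGACGTCA. They lie at chr7:55018767-55019016 on the + strand (EGFR), chr1:8026310-8026559 on the - strand (ERRFI1) and chr4:74444886-74445135 on the + strand (AREG).
EGFR: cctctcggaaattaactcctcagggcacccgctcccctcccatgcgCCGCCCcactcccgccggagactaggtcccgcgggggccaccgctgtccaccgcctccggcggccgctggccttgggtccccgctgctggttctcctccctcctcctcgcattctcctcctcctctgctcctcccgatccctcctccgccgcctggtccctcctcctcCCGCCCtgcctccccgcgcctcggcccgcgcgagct
ERRFI1: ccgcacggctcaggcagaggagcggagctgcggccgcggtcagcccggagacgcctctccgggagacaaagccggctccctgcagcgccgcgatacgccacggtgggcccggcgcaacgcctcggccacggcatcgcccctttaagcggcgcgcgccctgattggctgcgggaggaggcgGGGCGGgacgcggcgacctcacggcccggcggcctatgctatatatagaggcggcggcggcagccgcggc
AREG: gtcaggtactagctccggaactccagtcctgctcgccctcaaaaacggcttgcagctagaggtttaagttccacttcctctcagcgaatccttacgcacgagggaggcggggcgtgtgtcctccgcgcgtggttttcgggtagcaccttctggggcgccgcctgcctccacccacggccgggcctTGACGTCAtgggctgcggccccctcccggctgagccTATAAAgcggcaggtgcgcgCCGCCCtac
The EGFR sequence is 73.6% G+C with 2 GC boxes and no match to the other motifs, and the ERRFI1 sequence is 75.2% G+C with 1 GC box and no other match. Near its end the ERRFI1 sequence holds the letters tatatata, which the search for exact TATAAA did not count. The AREG sequence is less rich in G+C (65.2%) and holds 1 TATA box, 1 cyclic AMP response element and 1 GC box. Over 27305 RefSeq promoters of the same length, 42.3% held a GC box, 11.1% a TATA box, 6.6% an AP-1 site and 1.77% a cyclic AMP response element, and the median G+C content was 58.0%. Promoters were matched for 7 of the 9 genes. Among the others, HBEGF held 5 GC boxes (matches may overlap), TGFA 3 and ERBB2 none, ERBB2 held 1 AP-1 site and EREG 1 TATA box. These matches describe letters only and were not related to any measured binding.

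Among the receptors, EGFR was the gene that fell. EGFR (ENSG00000146648, GRCh38 chromosome 7 from 55019017 to 55211628, + strand, 28 exons), the receptor for EGF, AREG, TGFA, HBEGF and EREG, had 19.9, 17.0 and 21.4 FPKM in control replicates 1, 2 and 3 and 13.7, 9.09 and 13.5 FPKM in OFD1-depleted replicates 1, 2 and 3. Every OFD1-depleted sample lay below every control sample, and OFD1-depleted replicate 2 was the lowest of all. The mean was 19.4 ± 2.26 FPKM in the controls and 12.1 ± 2.61 FPKM after OFD1 depletion (SD, n = 3 each), 62.3% of control. On the scale of log2(FPKM + 0.1) the change was -0.70 (standard error 0.175, 95% confidence interval -1.08 to -0.31, adjusted p = 0.0194 by limma, with the Benjamini-Hochberg correction over the 12025 genes tested). Of those genes 11.9% passed the same test in the lower direction, and 22.3% had 3 OFD1-depleted values below all 3 control values, so a fall like that of EGFR was common in these samples. EGFR ranked 1318th by p-value, and its change was at percentile 9.37 of all changes. The call was lost without control replicate 1 (adjusted p = 0.0659) or control replicate 3 (adjusted p = 0.0877), both limma fits on 5 samples, and without a filter on low genes (limma adjusted p = 0.116). EGFR-AS1, an antisense gene inside the EGFR locus, was at most 0.0368 FPKM. In bulk RNA, fewer cells expressing a gene and less RNA per cell cannot be told apart, here and in the results that follow.

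ERBB2 (ENSG00000141736, chromosome 17 from 39687914 to 39730426, + strand, 27 exons), the ligand-less partner, had 15.7, 14.0 and 16.1 FPKM in the controls and 15.1, 12.8 and 12.4 FPKM in OFD1-depleted samples. The groups overlapped, since OFD1-depleted replicate 1 lay above control replicate 2. The means were 15.3 ± 1.13 and 13.4 ± 1.43 FPKM (SD, n = 3 each), and the log2 change of -0.19 (standard error 0.135) did not pass the test (limma adjusted p = 0.391), with a 95% confidence interval of -0.48 to 0.11. ERBB2 overlaps MIEN1 and PGAP3 on the opposite strand, both expressed (12.6 to 31.9 and 5.43 to 7.67 FPKM), and the strand setting of the counting is not given in the sources used here, so its level is less certain than that of EGFR. ERBB3 (ENSG00000065361, chromosome 12 from 56076799 to 56103505, + strand, 28 exons), a receptor for neuregulins, had 0.461, 0.657 and 0.244 FPKM in the controls and 0.385, 0.369 and 0.429 FPKM in OFD1-depleted samples. These values were below the mean of 1 FPKM required for testing, and the OFD1-depleted samples lay inside the range of the controls (two-sided exact permutation test on FPKM, p = 0.7).

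**Figure D1:**
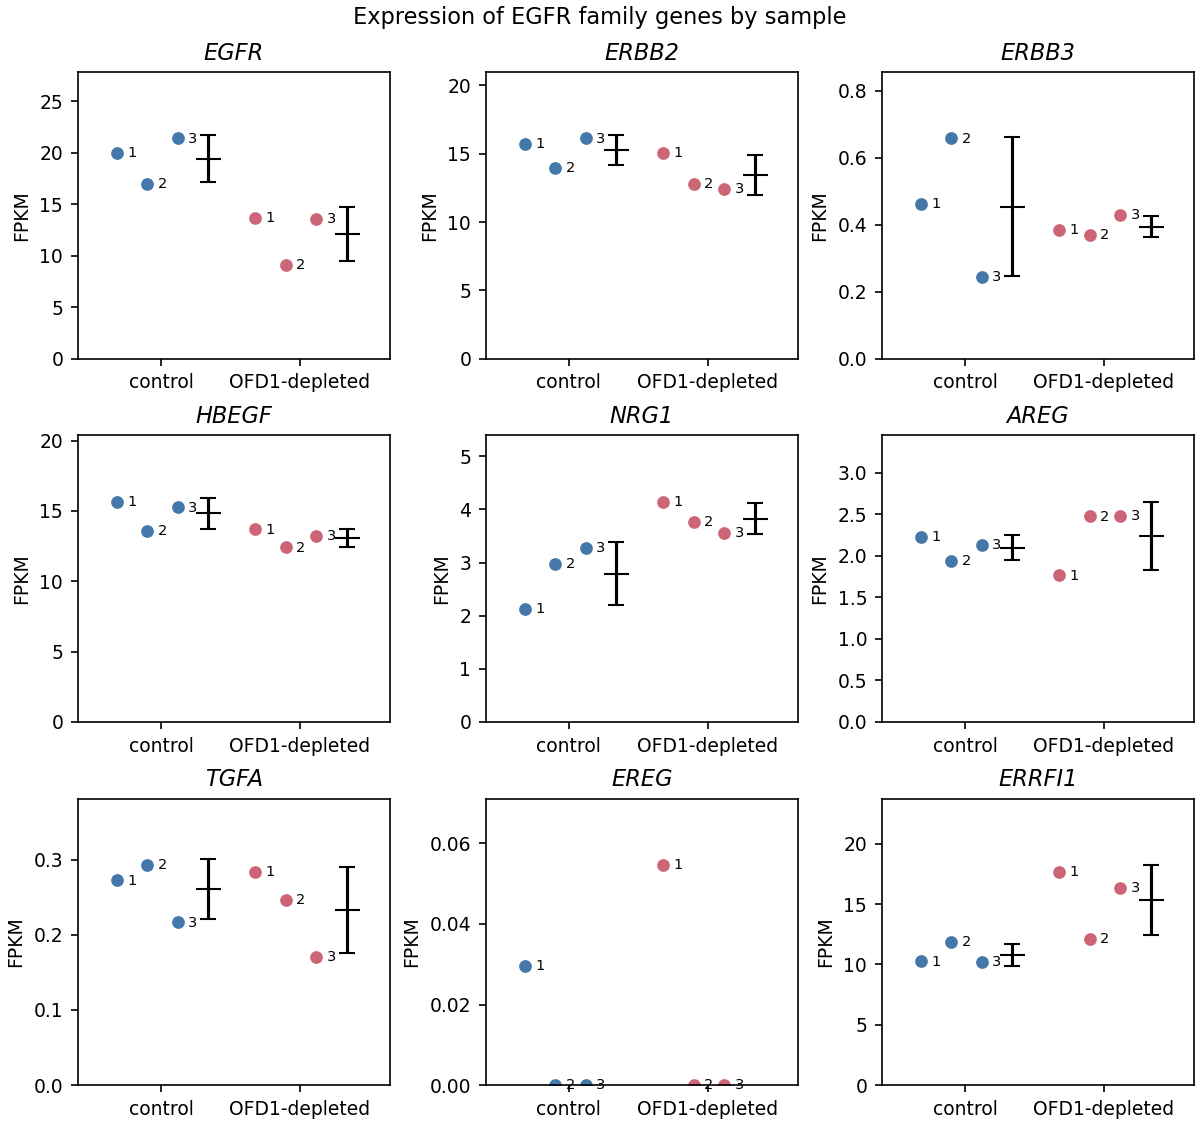
FPKM of the 9 genes (y axes, each from 0) in control (blue) and OFD1-depleted samples (red), with points numbered by replicate and bars for the mean ± SD of 3 samples, left out for EREG, which was at 0 in 4 samples. The groups do not overlap for EGFR (lower), NRG1 and ERRFI1 (both higher), and they overlap for the other 6 genes. Over all tested genes, the groups do not overlap for 22.3% in the lower direction and 13.8% in the higher.

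HBEGF was the most abundant ligand gene in every sample. HBEGF (ENSG00000113070, chromosome 5 from 140332843 to 140346603, - strand, 6 exons), heparin-binding EGF-like growth factor, had 15.7, 13.6 and 15.2 FPKM in the controls and 13.7, 12.4 and 13.2 FPKM in OFD1-depleted samples. OFD1-depleted replicate 1 just exceeded control replicate 2, and the other OFD1-depleted samples lay below all controls. The means were 14.8 ± 1.099 and 13.1 ± 0.647 FPKM (SD, n = 3 each), and the log2 change of -0.18 (standard error 0.127, 95% confidence interval -0.46 to 0.10) did not pass the test (limma adjusted p = 0.386).

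AREG (ENSG00000109321, chromosome 4 from 74445136 to 74455005, + strand, 6 exons), amphiregulin, had 2.22, 1.94 and 2.13 FPKM in the controls and 1.76, 2.47 and 2.48 FPKM in OFD1-depleted samples. The OFD1-depleted samples lay on both sides of the controls. The log2 change of 0.08 (standard error 0.21, 95% confidence interval -0.39 to 0.54, limma adjusted p = 0.843) did not pass the test, and its sign turned under 4 alternatives. TGFA (ENSG00000163235, chromosome 2 from 70447284 to 70554193, - strand), transforming growth factor alpha, was below the level required for testing, with 0.272, 0.293 and 0.216 FPKM in the controls and 0.283, 0.246 and 0.170 FPKM in OFD1-depleted samples, which overlapped. EREG (ENSG00000124882, chromosome 4 from 74365145 to 74388749, + strand), epiregulin, was listed at 0 in replicates 2 and 3 of both groups, at 0.0295 FPKM in control replicate 1 and at 0.0547 FPKM in OFD1-depleted replicate 1.

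NRG1 was the ligand gene whose OFD1-depleted samples all lay above the controls. NRG1 (ENSG00000157168, chromosome 8 from 31639222 to 32855666, + strand, 12 exons), neuregulin 1, the ligand of ERBB3 and ERBB4, had 2.13, 2.97 and 3.27 FPKM in the controls and 4.15, 3.77 and 3.56 FPKM in OFD1-depleted samples. The lowest OFD1-depleted sample was replicate 3, close above control replicate 3. The mean was 2.79 ± 0.590 FPKM in the controls and 3.83 ± 0.298 FPKM after OFD1 depletion (SD, n = 3 each). The log2 change of 0.46 (standard error 0.194, 95% confidence interval 0.03 to 0.89) did not pass the test after adjustment (limma adjusted p = 0.132, from an unadjusted 0.0366), and 13.8% of all tested genes had non-overlapping groups in the higher direction. It passed under quantile normalization (log2 change 0.60, limma adjusted p = 0.045) and with weights for each sample (0.61, limma adjusted p = 0.0274). Without control replicate 1, the lowest control, the log2 change was 0.29 (limma adjusted p = 0.473). Under same-total scaling it was 0.32 (limma adjusted p = 0.326).

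The feedback inhibitor had higher values than control in every OFD1-depleted sample, without passing the test. ERRFI1 (ENSG00000116285, chromosome 1 from 8004404 to 8026309, - strand, 4 exons) had 10.2, 11.8 and 10.2 FPKM in the controls and 17.6, 12.1 and 16.3 FPKM in OFD1-depleted samples. OFD1-depleted replicates 1 and 3 stood well above the controls, and OFD1-depleted replicate 2 lay just above control replicate 2. The means were 10.8 ± 0.927 and 15.4 ± 2.91 FPKM (SD, n = 3 each), and the log2 change was 0.49 (standard error 0.161, 95% confidence interval 0.14 to 0.85, limma adjusted p = 0.0576). In the full set of samples, 5.07% of all tested genes passed in the higher direction, and 13.8% had all OFD1-depleted values above the controls. Without OFD1-depleted replicate 2 the log2 change of ERRFI1 was 0.66, which passed (limma adjusted p = 0.00441). The call was also gained under median-of-ratios scaling (limma adjusted p = 0.027), quantile normalization (limma adjusted p = 0.0202), sample weights (limma adjusted p = 0.000842) and with only genes at a mean of 5 FPKM or more (limma adjusted p = 0.0495). Same-total scaling gave 0.35 (limma adjusted p = 0.226). The same total without mitochondrial genes gave 0.42 (limma adjusted p = 0.161).

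In all, 1 of the 6 tested genes (EGFR) passed in the lower direction and none in the higher direction, by limma with a threshold of 0.05 on the adjusted p. At an unadjusted limma p under 0.05, EGFR, NRG1 and ERRFI1 passed. By p-value ERRFI1 ranked 2197th and NRG1 3340th of the 12025 genes tested, so passing at this level was common among all genes. The median log2 change of the 6 was -0.05, beside -0.03 over all genes tested, with 3 of the 6 higher and 3 lower. Over all genes 1429 were lower and 610 higher as deposited, a split that became 1990 and 272 when all samples were scaled to the same total, and 1311 and 1093 under quantile normalization. Same-total scaling moved the median of all genes by -0.14, and EGFR remained below that median at a log2 change of -0.84.

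**Figure D2:**
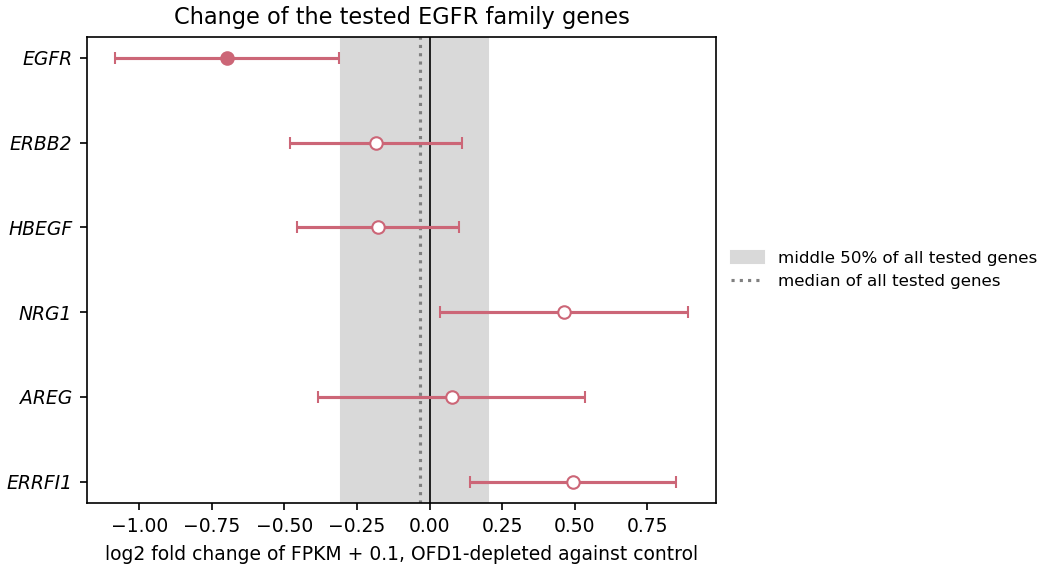
Change on the log2(FPKM + 0.1) scale (x axis, OFD1-depleted against control) of the 6 tested genes, with 95% confidence intervals from limma. The filled point (EGFR, -0.70) passed the test, open points did not, the grey band spans the middle 50% of all tested genes and the dotted line is their median (-0.03).

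Because the receptors, and the ligands, were measured in the same samples, their proportions do not change when all genes of a sample are divided by a common factor. Quantile normalization is not such a scaling, and the proportions were not computed under it. EGFR made up 55.3, 53.7 and 56.7% of the summed FPKM of the 3 receptor genes in control and 46.9, 40.9 and 51.3% in OFD1-depleted samples. ERBB2 made up 43.5, 44.3 and 42.7% in control and 51.8, 57.5 and 47.1% in OFD1-depleted samples. The leading receptor gene was thus EGFR in all controls and ERBB2 in OFD1-depleted replicates 1 and 2, while EGFR still led in replicate 3. The EGFR share averaged 55.2 ± 1.5% in control and 46.4 ± 5.23% in OFD1-depleted samples (SD, n = 3 each), and neither its groups nor those of ERBB2 overlapped. ERBB3 averaged 1.33% and 1.53%.

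Among the 5 ligand genes, HBEGF gave 77.1, 72.3 and 73.1% of the summed FPKM in the controls and 68.6, 65.7 and 68.0% in OFD1-depleted samples, and NRG1 gave 10.5, 15.8 and 15.7% and then 20.8, 19.96 and 18.3%. All OFD1-depleted samples lay below the controls for HBEGF and above them for NRG1. The mean HBEGF share was 74.2 ± 2.57% in control and 67.4 ± 1.57% in OFD1-depleted samples, and the mean NRG1 share was 14.0 ± 3.03% and 19.7 ± 1.26% (SD, n = 3 each). AREG averaged 10.5 and 11.6%, TGFA 1.31 and 1.20% and EREG 0.0485 and 0.0915%, each with overlapping groups. With HBEGF left out of the sum, the share of NRG1 still rose, by 6.92 points against 5.72 with HBEGF. The share of AREG among these other 4 ligand genes changed by -5.58 points against 1.08, and that of TGFA by -1.42 points against -0.11. The summed ligand level was 19.99 ± 1.08 FPKM in the controls and 19.4 ± 0.521 FPKM in OFD1-depleted samples, with overlapping groups, while the summed receptor level was 35.1 ± 3.18 and 25.9 ± 3.47 FPKM without overlap. There were 0.563, 0.595 and 0.553 FPKM of ligand per FPKM of receptor in the controls and 0.685, 0.8495 and 0.735 in the OFD1-depleted samples.

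The ratio of EGFR to ERRFI1, receptor over inhibitor, crossed 1 between the groups. It was 1.95, 1.43 and 2.09 in control and 0.774, 0.752 and 0.830 in OFD1-depleted samples, with means of 1.82 ± 0.347 and 0.785 ± 0.0401 (SD, n = 3 each). EGFR RNA exceeded ERRFI1 RNA in each control sample and was below it in each OFD1-depleted sample, and the 3 OFD1-depleted ratios lay close together although replicate 2 had the lowest level of both genes among them. The mean log2 ratio was 0.85 ± 0.291 in control and -0.35 ± 0.073 in OFD1-depleted samples, a difference of -1.20 that ranged from -1.36 to -1.09 when each sample was left out in turn. For the shares of EGFR, ERBB2, HBEGF and NRG1 and for this ratio, the two-sided exact permutation test gave p = 0.1, the smallest that 3 samples against 3 allow (0.18 after Benjamini-Hochberg adjustment over 9 such tests), so none could pass a threshold of 0.05.

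**Figure D3:**
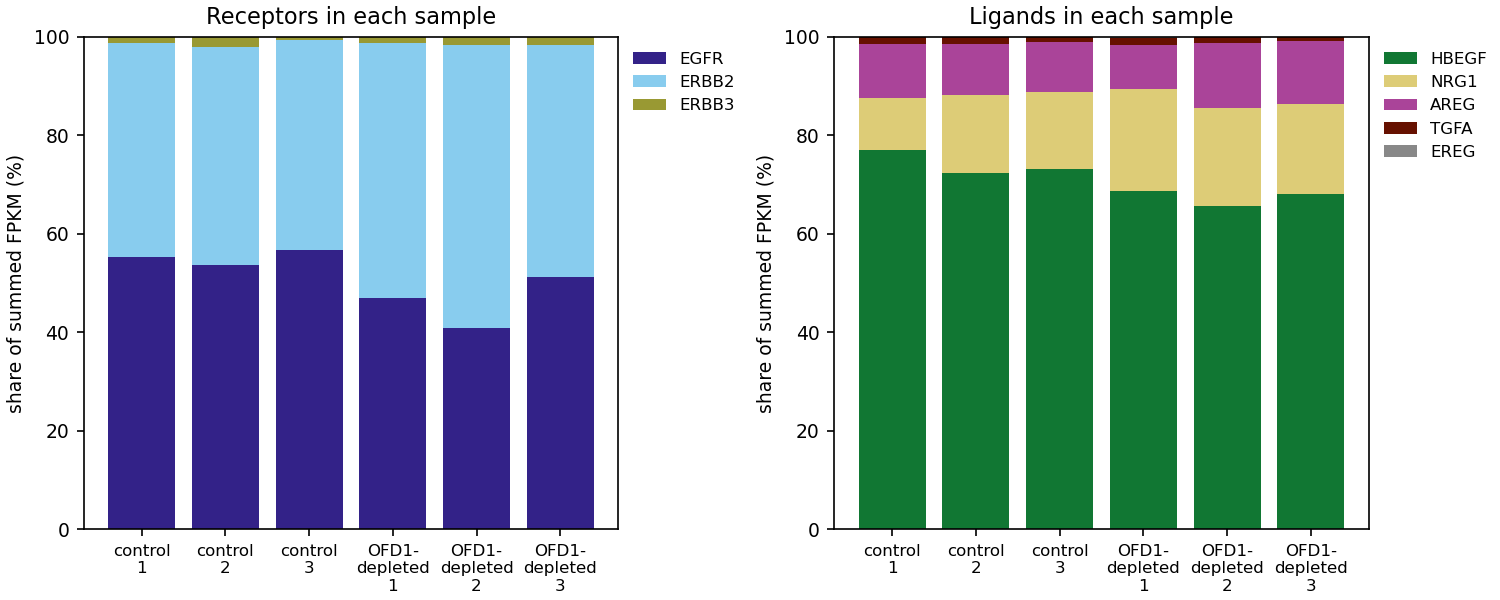
Share (y axis, % of summed FPKM) of each receptor gene among the 3 receptors (left) and of each ligand gene among the 5 ligands (right), 1 bar per sample. EGFR takes 53.7 to 56.7% of the receptor bars in control and 40.9 to 51.3% in OFD1-depleted samples, and NRG1 takes 10.5 to 15.8% and 18.3 to 20.8% of the ligand bars.

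The order of levels changed at its top. In control samples EGFR was highest, followed by ERBB2 and HBEGF, whose ranges overlapped, then ERRFI1, then NRG1 and AREG, whose ranges also overlapped, then ERBB3 and TGFA with overlapping ranges, and EREG. EGFR lay above ERBB2, and ERRFI1 below HBEGF, with no overlap of ranges. In OFD1-depleted samples the order of means was ERRFI1 (15.4 FPKM), ERBB2 (13.4 FPKM), HBEGF (13.1 FPKM) and EGFR (12.1 FPKM), and each of these overlapped its neighbour in the order, so that the 4 could not be ranked beyond the spread of the samples. Below them came NRG1, AREG, ERBB3, TGFA and EREG, each without overlap with the next.

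The other genes of the EGF family were all at low level and none reached the mean of 1 FPKM required for testing. NRG2, a neuregulin, had 0.836, 1.00 and 0.959 FPKM in the controls and 0.306, 0.302 and 0.266 FPKM in OFD1-depleted samples, with no overlap between the groups. When low genes were not filtered out, it passed the test (log2 change -1.40, standard error 0.269, limma adjusted p = 0.049). ERBB4, the fourth receptor, ranged from 0.463 to 0.582 FPKM in the controls and from 0.354 to 0.883 FPKM in OFD1-depleted samples, which enclosed the controls. EGF and BTC were also under 1 FPKM on average with overlapping groups, NRG4 was at most 0.0311 FPKM, and EPGN and NRG3 were listed at 0 in all samples.

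Genes that process the ligands or carry the signal were examined in lists written by hand, with earlier results of these data known. The counts of these lists stand beside the 11.9% of all tested genes that passed in the lower direction and the 5.07% in the higher. Groups without overlap stand beside 22.3% of all tested genes in the lower direction and 13.8% in the higher. Ligand shedding was represented by 10 genes, of which 9 were tested (TIMP3 was listed at 0), and 2 were lower, 1 was higher and 6 did not pass, with a median log2 change of -0.27. ADAM10, a protease that cuts EGF and betacellulin from the membrane, fell from 13.2, 12.4 and 12.9 FPKM to 8.34, 6.43 and 9.03 FPKM (log2 change -0.70, standard error 0.151, limma adjusted p = 0.00882). RHBDF1 (iRhom1), which brings ADAM17 to the cell surface, fell from 25.4, 23.7 and 28.9 FPKM to 18.9, 15.0 and 16.9 FPKM (-0.62, standard error 0.139, limma adjusted p = 0.0109). The protease that rose was ADAM19, which can cut neuregulins, with 57.8, 47.7 and 64.2 FPKM in the controls and 97.7, 70.4 and 88.5 FPKM in OFD1-depleted samples (0.59, standard error 0.16, limma adjusted p = 0.027). The groups of these 3 genes did not overlap, and the call of ADAM19 was lost under several alternatives, same-total scaling and quantile normalization among them.

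Most of the adaptors, RAS and RAF proteins and kinases that relay the signal did not pass the test. Of 26 genes, all tested, 2 were lower, none was higher by limma and 24 did not pass, with a median log2 change of -0.09. GAB2, a docking adaptor that recruits PI3K and the phosphatase SHP2, fell from 3.21, 3.15 and 2.83 FPKM to 1.52, 1.18 and 1.41 FPKM (log2 change -1.11, standard error 0.201, limma adjusted p = 0.00327). RASA1, a GTPase-activating protein that turns RAS off, fell from 15.1, 16.7 and 14.0 FPKM to 9.86, 7.06 and 9.68 FPKM (-0.79, standard error 0.158, limma adjusted p = 0.00606). The 2 genes that fell thus have opposite known roles in the relay.

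Of 18 genes for receptor ubiquitination, endocytosis and degradation, all tested, 1 was lower, 1 was higher and 16 did not pass, with a median log2 change of 0.03. SH3KBP1 (CIN85), the scaffold that links CBL to the endocytic machinery at active EGFR, fell from 17.3, 20.3 and 17.3 FPKM to 9.96, 8.39 and 8.97 FPKM, without overlap (log2 change -0.998, standard error 0.135, limma adjusted p = 0.000519). CBLB, a ubiquitin ligase for active receptors, rose from 2.08, 1.67 and 2.17 FPKM to 3.99, 2.98 and 4.04 FPKM, also without overlap (0.86, standard error 0.2, limma adjusted p = 0.0135). In the whole list of 18, 4 genes were lower and 3 higher without overlap, called or not. The call of CBLB was lost under same-total scaling.

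The list with the most calls held 16 genes that ERK signalling is known to induce: 4 were lower, 2 were higher and 10 did not pass, with a median log2 change of -0.22. EGR1, an immediate early transcription factor, fell from 8.14, 8.66 and 7.88 FPKM to 3.62, 2.34 and 3.30 FPKM (log2 change -1.41, standard error 0.179, limma adjusted p = 0.000347). ETV4, a transcription factor of the ETS family, fell from 4.97, 5.37 and 4.59 FPKM to 2.95, 3.598 and 2.39 FPKM (-0.74, standard error 0.182, limma adjusted p = 0.0179). The other genes that fell, named after their values were seen, were FOSL1 (179.9 ± 13.1 to 108.9 ± 7.17 FPKM, -0.72, limma adjusted p = 0.00265), a partner of JUN in AP-1, and CCND1 (318 ± 17.5 to 229.8 ± 17.6 FPKM, -0.47, limma adjusted p = 0.029), which encodes cyclin D1. Against these, IER3, an immediate early gene linked to survival, rose from 62.7, 66.5 and 62.4 FPKM to 105.2, 99.8 and 89.7 FPKM (0.62, standard error 0.122, limma adjusted p = 0.00563), and DUSP5, a phosphatase that inactivates nuclear ERK, rose from 18.7, 16.6 and 16.7 FPKM to 29.2, 21.6 and 23.0 FPKM (0.49, standard error 0.144, limma adjusted p = 0.0374). None of these 6 genes had overlapping groups. In the whole list of 16, 8 genes were lower and 3 higher without overlap, called or not. The calls in this list went in both directions, and several of its genes also respond to other pathways. The call of DUSP5 was lost under same-total scaling and without the variance trend. When each sample was left out in turn, the calls of CCND1 and DUSP5 held only without OFD1-depleted replicate 2. The call of ETV4 was lost without control replicate 1, control replicate 2 or OFD1-depleted replicate 3. Without a filter on low genes, CCND1, ETV4 and DUSP5 did not pass.

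**Figure D4:**
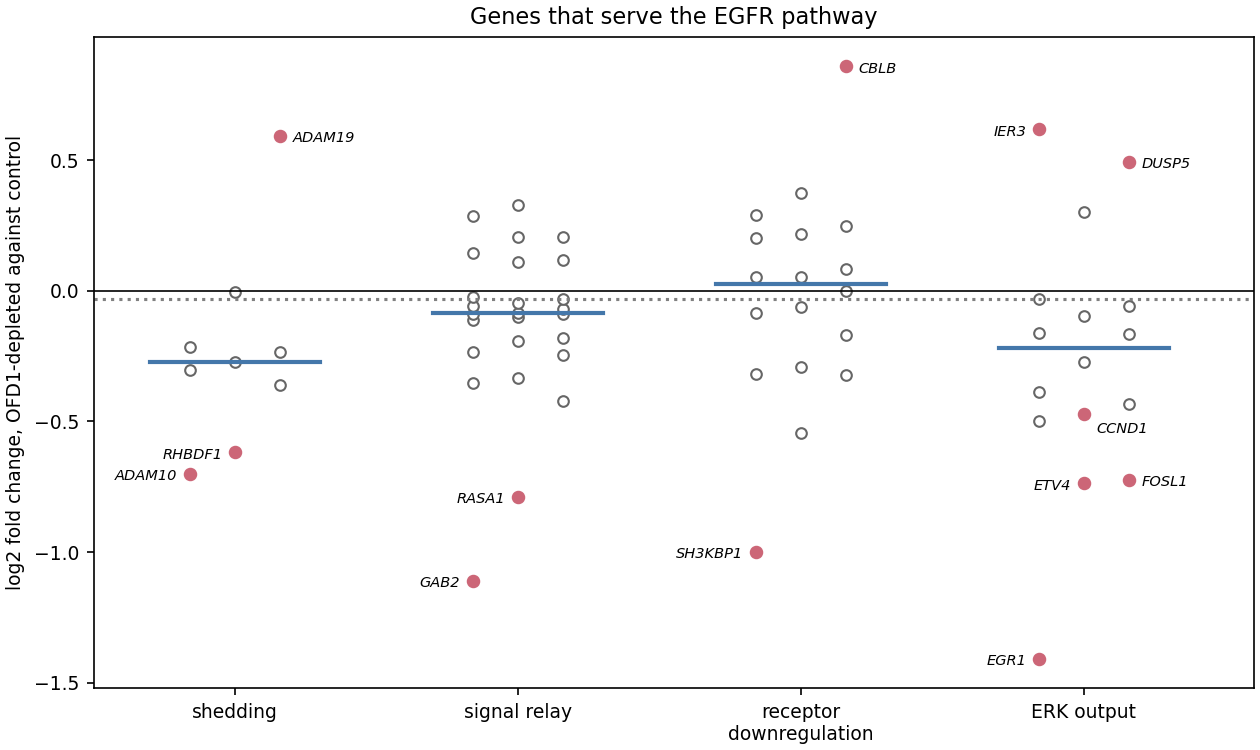
Change on the log2(FPKM + 0.1) scale (y axis, OFD1-depleted against control) of the tested genes in 4 lists, with filled, named points for genes that passed the test, a blue line at each list's median and a dotted line at the median of all tested genes (-0.03). The ERK output list holds 4 filled points below 0 and 2 above, and the shedding list 2 below and 1 above.

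Across the 6 samples, the genes whose log2(FPKM + 0.1) followed EGFR most closely were CASP2 (Pearson r = 0.999), a caspase, ABCA1 (r = 0.998), a cholesterol exporter, and CDH2 (r = 0.998), N-cadherin. Their log2 changes were -0.69, -0.83 and -0.47, and CASP2 and CDH2 passed the test (limma adjusted p = 0.0224 and 0.0387) while ABCA1 did not (limma adjusted p = 0.0559). In each of the 3, as in EGFR, OFD1-depleted replicate 2 was lowest and control replicate 3 highest, and the points share library and scaling. Within the set, HBEGF followed EGFR most closely (r = 0.92), then ERBB2 (r = 0.78), while AREG (r = -0.34), ERRFI1 (r = -0.49) and NRG1 (r = -0.64) had negative correlations. These correlations are given as descriptions, over 6 samples that differ by treatment.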

How the data were processed

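RNA-seq was analysed in 3 control and 3 OFD1-depleted samples, grouped by their labels. Per the methods, reads of directional libraries were aligned by the authors with HISAT2 (2.0.5 by the submitters' processing notes) to GRCh38, and the deposited FPKM values per gene were made with StringTie. FPKM is already divided by sequencing depth and the table holds no counts. Low values of single-exon genes gave an approximate depth of 37700000 to 44500000 fragments per sample, since only 16.1 to 19.4% of them lay within 0.05 of a whole multiple of a fixed step, and this depth was not used. Alternate contigs (6464 genes, all at 0) were left out, and no samples held identical values.

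The 12025 genes whose 6 samples averaged 1 FPKM or more were compared with limma 3.58.1 in R 4.3.3, with a variance trend, on log2(FPKM + 0.1), a scale that understates changes of low genes. Tests were two-sided, with Benjamini-Hochberg adjustment over all tested genes, with a threshold of 0.05. The procedure was tested on simulated data. ERBB3, TGFA and EREG were below the filter. Shares, ratios and single genes were compared by exact permutation. The study describes the samples as biological replicates, but the labels name no separate cultures, so p-values measure the spread between these samples. After each gene's group mean was subtracted, same-numbered samples of the groups correlated at r = 0.058, 0.048 and 0.011. The mean r between differently numbered samples of the groups was -0.019, and samples were not treated as pairs.

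The 9 genes and the lists were chosen with earlier results of these data known. Named genes were OFD1, the 9 genes, up to 2 largest falls and 2 largest rises past the threshold in each list, and the 3 genes most correlated with EGFR. Promoters came from RefSeq (GRCh38.p14), and exon numbers from GENCODE on GRCh38, while gene coordinates are those of the deposited table. Matches of the hairpin's seed and protein sequences were not analysed here, and 1 marker gene is not reported here. Figures and promoter searches used Python 3.11.15, pandas 2.3.3 and numpy 2.4.6. Alternatives were other pseudocounts, filters, scalings, limma without trend or with array weights, the replicate block and each sample left out in turn.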

Additional observations from a re-analysis of the deposited data

How the results depend on the processing

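EGFR was lower under all 17 alternatives (log2 change -0.84 to -0.50) and passed in 14. ERRFI1 was higher in all 17 (0.35 to 0.66) and passed in 5, and NRG1 was higher in all 16 that tested it (0.29 to 0.61) and passed in 2. ERBB2 (-0.33 to -0.11) and HBEGF (-0.32 to -0.10) passed in none. AREG turned to -0.065 under same-total scaling, -0.010 with array weights, and -0.0011 or -0.0038 without OFD1-depleted replicate 2 or 3, within a range of -0.0038 to 0.23 when each sample was left out. Without a filter, ERBB3, TGFA and EREG gave -0.09, -0.12 and 0.09, none of which passed. With the replicate block, EGFR stayed at -0.70 (limma adjusted p = 0.00372), 1 of the 9 genes was lower and none higher, 1534 of all genes were lower and 762 higher, and no call of the 9 genes changed. Same-numbered samples share only a number.

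Without a filter the counts were 823 lower and 260 higher over all genes, 0 lower among the 9 genes, 1 lower and 0 higher in ligand shedding, 0 higher in receptor downregulation, 2 lower and 1 higher in ERK output, 1 lower (NRG2) among the other EGF family genes, and 1 lower among the other receptor tyrosine kinases. More genes were then tested (28501). With array weights they were 2263 and 1693 over all genes, 2 higher among the 9, 5 lower in ligand shedding, 2 higher in signal relay, 2 lower and 4 higher in receptor downregulation and 7 lower in other receptor tyrosine kinases. A filter at a mean of 5 FPKM gave 1 higher among the 9, 1 lower in signal relay, 0 higher in receptor downregulation and 1 lower in other receptor tyrosine kinases. Higher genes over all genes numbered 272 at the same total, 378 at the same total without mitochondrial genes and 1093 under quantile normalization. Median-of-ratios scaling gave 1 and quantile normalization 2 higher among the 9. The higher gene in ligand shedding was lost (0) at both same totals, under quantile normalization and without the trend, that in receptor downregulation (0) at the same total, and ERK output had 1 higher gene (IER3, without DUSP5) at both same totals and without the trend. Where no construction shows it, the cause was not tested.

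Leaving out each sample gave 882 to 1766 lower and 252 to 1097 higher genes over all genes, 0 to 1 lower and 0 to 1 higher among the 9, 1 to 2 lower and 0 to 1 higher in ligand shedding, 0 to 1 higher in signal relay, 0 to 3 higher in receptor downregulation, and 2 to 4 lower and 1 to 2 higher in ERK output. The lowest counts over all genes came without control replicate 3 (lower) and control replicate 1 (higher), and the highest without OFD1-depleted replicate 2, which also gave the additional higher gene among the 9 and in signal relay, the 3 higher genes in receptor downregulation and the 2 higher genes in ERK output. ERK output had 2 lower genes without control replicate 1, control replicate 2 or OFD1-depleted replicate 3, and ligand shedding had 1 lower gene without control replicate 3. The higher gene was lost in ligand shedding without control replicate 1 or 2 or OFD1-depleted replicate 1 or 3, and in receptor downregulation without control replicate 2 or OFD1-depleted replicate 3. With HBEGF left out of the ligand sum, the share differences became 6.92 percentage points for NRG1, -5.58 for AREG and -1.42 for TGFA. With 3 samples a group and no read counts, small changes of ERBB3, TGFA and EREG, all under 1 FPKM, could not be resolved.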

Other observations

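Of 22 receptor tyrosine kinases outside the EGFR family, 13 were expressed well enough to be tested, and 3 were lower, none was higher by limma and 10 did not pass, with a median log2 change of -0.31. Over all genes tested, 11.9% were lower by the same test and 22.3% had all OFD1-depleted values below the controls. TYRO3, a receptor for GAS6, had 2.42, 2.31 and 2.34 FPKM in control and 0.993, 1.13 and 0.911 FPKM in OFD1-depleted samples (-1.15, standard error 0.221, limma adjusted p = 0.00475). ROR1, a receptor for WNT5A, had 6.77, 6.03 and 6.92 FPKM and then 4.04, 2.01 and 3.57 FPKM (-1.07, standard error 0.232, limma adjusted p = 0.0091). EPHB4, a receptor for ephrin-B2 named after its values were seen, fell from 18.6 ± 2.12 to 12.7 ± 0.823 FPKM (SD, n = 3 each, -0.54, limma adjusted p = 0.0182). The groups of these 3 genes did not overlap. Of the 13 tested, 6 had all OFD1-depleted values below the controls and none had all of them above. The log2 change was negative in all 13, beside 6460 lower and 5565 higher over all genes tested, whether called or not. The call of EPHB4 was lost without control replicate 1, control replicate 3 or OFD1-depleted replicate 3. Without a filter on low genes, only the call of TYRO3 remained.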
